A study of Mus musculus with 6 samples.

Results

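The metallothionein genes Mt1, Mt2 and Mt3 and Mtf1, the gene of the metal sensor MTF-1, were followed in mouse neural stem cells grown with and without cadmium. They were picked by symbol as 4 of the 25241 genes of the deposited tables, and all 4 passed the filter on low counts, which left 14369 genes for testing. Wild type primary neural stem cells of the subgranular zone, the layer of the hippocampal dentate gyrus in which neurons are still produced in adult life, were sequenced at passage 3 from 3 untreated cultures (control) and from 3 cultures given 0.8 μM cadmium chloride for 72 h (cadmium). The labels number the replicates as biological without naming separate animals or platings, so the p-values measure only the spread between these samples, which may be technical.

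Metallothioneins are small proteins rich in cysteine, whose sulfur atoms hold zinc and copper in a healthy cell and bind cadmium more tightly than zinc. Mt1 and Mt2 are active in most tissues and are the classical metal-induced genes, whereas Mt3 is known from the brain, where astrocytes and neurons make it, and responds little to metals. MTF-1 is a zinc finger protein that senses free zinc, enters the nucleus and binds metal response elements in the promoters of Mt1, Mt2 and other genes of metal handling. Cadmium is thought to act on it largely by displacing zinc from its binding sites in other proteins.

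Library totals lay between 37710042 and 41523231 counts. Replicates differed by more than counting noise, with chi-square statistics over genes of 3.43 to 12.8 times their degrees of freedom. Control replicate 3 gave 12.8 with control replicate 1 and 11.8 with control replicate 2. Control replicates 1 and 2 gave 5.12, and pairs of cadmium libraries gave 3.43 to 6.59. The 8 neural stem cell markers, among them Nes and Sox2, summed to 6175 to 6373 CPM (a count scaled to the library total) in control and 6902 to 7067 CPM in cadmium libraries. Of the other markers found, the 5 microglial ones summed to at most 0.663 CPM and the 5 endothelial markers to at most 3.16 CPM in any library. Fibroblast and pericyte markers summed to at most 2.22 CPM in control and 0.982 CPM in cadmium libraries. Neuronal markers lay between 549 and 658 CPM and oligodendrocyte lineage markers between 2989 and 3269 CPM. Astrocyte markers summed to 6920 to 7912 CPM in control and 4311 to 4466 CPM in cadmium libraries. Of these 12 markers, 9 were called lower and 1 higher (edgeR adjusted p below 0.05). Over all genes tested, 22.4% were called lower and 23.1% higher. Gfap alone had a mean of 2813 CPM in control and 872 CPM in cadmium libraries. No marker found was at 0 in every library.

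The stretches before the transcript starts of the 3 metallothionein genes are shown because the genes share a cluster and a family but not a response. They are the 250 bases upstream of the RefSeq start on the plus strand of mouse build GRCm38.p6, 5′ to 3′, with matches to metal response element letters (TGCACNC or TGCGCNC, either strand) and to antioxidant response element letters (TGACNNNGC, either strand) in capitals. The antioxidant response element is the site bound by NRF2, and the only such match in these 3 stretches is the 9-letter one of Mt2. The stretch of Mt1 is chr8:94178839-94179088, that of Mt2 chr8:94172368-94172617 and that of Mt3 chr8:94152357-94152606.
Mt1: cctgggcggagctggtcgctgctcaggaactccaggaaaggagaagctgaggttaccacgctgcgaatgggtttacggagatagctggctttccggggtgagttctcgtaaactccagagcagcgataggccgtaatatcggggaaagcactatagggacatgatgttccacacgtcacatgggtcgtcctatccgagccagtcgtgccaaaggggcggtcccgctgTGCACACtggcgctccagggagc
Mt2: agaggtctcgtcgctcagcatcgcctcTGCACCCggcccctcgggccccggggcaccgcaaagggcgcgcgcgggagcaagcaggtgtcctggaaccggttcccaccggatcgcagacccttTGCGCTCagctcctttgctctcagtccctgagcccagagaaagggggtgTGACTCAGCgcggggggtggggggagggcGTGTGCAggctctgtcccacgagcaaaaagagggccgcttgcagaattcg
Mt3: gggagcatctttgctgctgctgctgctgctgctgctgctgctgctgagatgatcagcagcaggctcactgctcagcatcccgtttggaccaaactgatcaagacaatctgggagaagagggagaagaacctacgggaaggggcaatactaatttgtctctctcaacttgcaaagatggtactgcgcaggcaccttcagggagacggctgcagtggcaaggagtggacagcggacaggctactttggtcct

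Further matches lay just after the annotated starts, and are shown as stretches of at most 30 bases, counted from 1 at the RefSeq start.
Mt1 bases 1 to 30 (chr8:94179089-94179118): tcTGCACTCcgcccgaaaagTGCGCTCggc
Mt1 bases 77 to 106 (chr8:94179165-94179194): cgcctgctGGGTGCAaacccttTGCGCCCg
Mt1 bases 45 to 74, antioxidant element (chr8:94179133-94179162): ggggcgcgTGACTATGCgtgggctggagca
Mt2 bases 1 to 30 (chr8:94172618-94172647): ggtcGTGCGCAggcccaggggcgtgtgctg
Mt3 bases 16 to 45 (chr8:94152622-94152651): tcgggacagcagTGCACACacacggagagc

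In windows of 300 bases, 250 before and 50 after the start, Mt2 held 4 metal response element matches, Mt1 held 3, Mt3 held 1 and Mtf1 held 0. Of 32851 such windows in the RefSeq table, 25.7% held at least 1 match, 1.97% at least 3 and 0.517% at least 4. The single match of Mt3 is thus a common feature of promoters. Mt1 has a transcript in the GENCODE M21 annotation that starts at base 123, further in than the RefSeq start. Between the window's end and that inner start lay 2 more metal response element matches and 1 antioxidant response element match, which makes 5 metal response element matches before the inner start. At least 1 antioxidant response element match was found in 12.4% of windows. A match is a run of letters and does not show that a factor binds there.

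**Figure D1:**
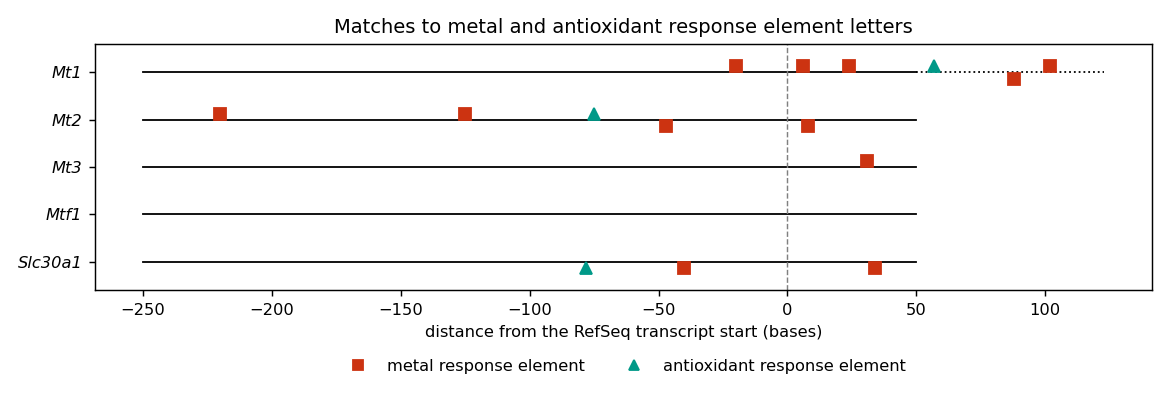
Matches to the letters of metal response elements (squares) and antioxidant response elements (triangles) by distance from the RefSeq transcript start in bases, above each line for the plus strand of the gene and below it for the other. Solid lines are the windows of 300 bases and the dotted line is the part of Mt1 up to its inner start. Mt1 and Mt2 hold several metal response element matches, Mt3 holds 1 and Mtf1 holds 0.

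Cadmium cultures held more Mt1 and Mt2 transcript than control cultures, and no change was called for Mt3 or Mtf1. Of the 4 genes, 2 passed the test (edgeR adjusted p below 0.05), both higher, where 45.5% of all genes tested passed in either direction, 23.1% higher and 22.4% lower. The same 2 had CPM ranges that did not overlap between groups, as had 56.2% of all genes tested. So a call by itself does not set Mt1 and Mt2 apart from the rest of the transcriptome, and the size of the change is given for each. The median absolute log2 fold change over all genes tested was 0.20.

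Mt1 (Entrez 17748) stood at 538, 526 and 625 CPM in control replicates 1, 2 and 3 and at 1292, 1252 and 1277 CPM in cadmium replicates 1, 2 and 3. The groups did not overlap, and the lowest cadmium library held 2.01 times the level of the highest control library. Means were 563 ± 53.8 and 1274 ± 20.1 CPM (SD, n = 3). The log2 fold change was 1.19 ± 0.06 (SE, edgeR adjusted p = 1.4e-07), a 2.27-fold rise with a 95% interval of 2.07 to 2.50. Control replicate 3 was the high one of its group, at 1.17 times the mean of the other two, and without it the log2 fold change was 1.28.

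Mt2 (Entrez 17750) was at 226, 194 and 258 CPM in control replicates 1, 2 and 3 and at 756, 696 and 748 CPM in cadmium replicates 1, 2 and 3. Here too the groups were apart, with 2.70 times the level of the highest control in the lowest cadmium library. Means were 226 ± 31.8 and 733 ± 32.3 CPM (SD, n = 3), and the log2 fold change was 1.71 ± 0.11 (SE, edgeR adjusted p = 2.2e-05), a 3.26-fold rise with a 95% interval of 2.74 to 3.88. Control replicate 3 was again highest of its group and control replicate 2 lowest, while cadmium replicate 2 was the low one among the cadmium libraries. By size of the log2 fold change, Mt2 was at place 86 and Mt1 at place 219 of the 14369 genes, counted from the largest rise. In CPM gained, Mt1 was at place 2 and Mt2 at place 6 of all 25241 genes, with gains of 711 and 507 CPM.

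Mt3 (Entrez 17751) was at 264, 234 and 263 CPM in control and at 241, 244 and 247 CPM in cadmium replicates 1, 2 and 3. All 3 cadmium libraries fell inside the control range. The log2 fold change was -0.05 ± 0.05 (SE, edgeR adjusted p = 0.45), with a 95% interval from 0.901-fold to 1.04-fold. Of the genes tested, 13.2% had a smaller absolute log2 fold change. Astrocyte markers, whose cells are one known source of Mt3, were lower in the same cadmium libraries as given above, and their part in the Mt3 level was not tested. In bulk libraries, fewer cells of a type and less RNA per cell cannot be told apart.

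Mtf1 (Entrez 17764), which encodes the sensor itself, was at 31.2, 30.7 and 29.2 CPM in control and at 31.1, 29.99 and 32.9 CPM in cadmium replicates 1, 2 and 3. The groups overlapped, and the means were 30.4 ± 1.00 and 31.3 ± 1.45 CPM (SD, n = 3). Its log2 fold change was 0.05 ± 0.06 (SE, edgeR adjusted p = 0.50), with a 95% interval from 0.949-fold to 1.13-fold. Transcript counts do not show where the protein is or how much metal it senses. Mt4, the family member of squamous epithelia, had 1 read in cadmium replicate 1 and 0 reads in every other library, and was not tested.

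**Figure D2:**
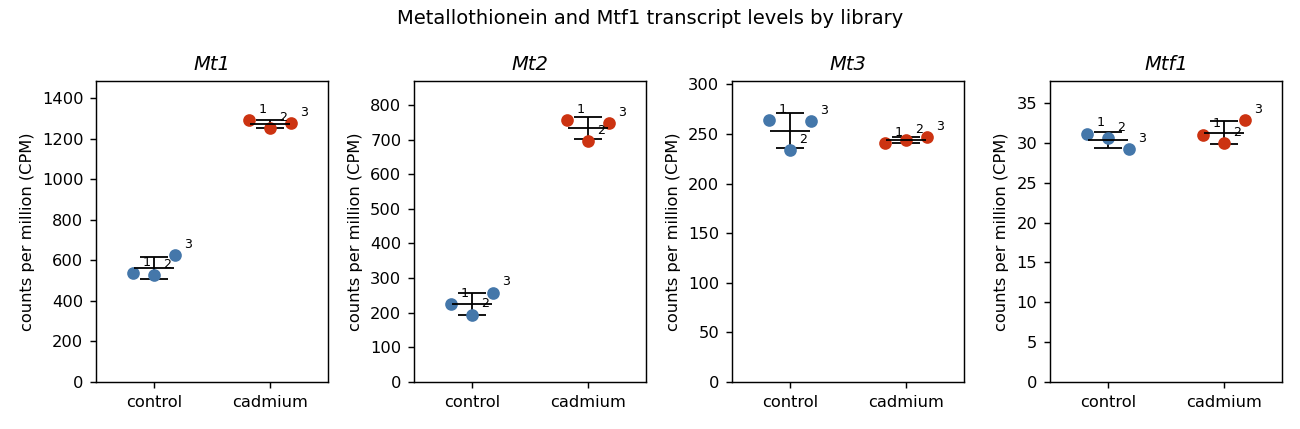
CPM of Mt1, Mt2, Mt3 and Mtf1 in each library (points, numbered by replicate), with the mean and SD of 3 libraries (bars), each vertical axis starting at 0. Mt1 and Mt2 are apart between groups, with the lowest cadmium library at 1252 and 696 CPM, and Mt3 and Mtf1 overlap.

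The deposited FPKM values scale counts by gene length and library total, and allow levels to be compared between genes. On that scale Mt3, Mt1 and Mt2 stood close together in control libraries, at 471 ± 32.1, 447 ± 42.7 and 406 ± 57.2 FPKM (SD, n = 3), with ranges over libraries that overlapped between neighbours. In cadmium libraries the order was Mt2 at 1319 ± 58.1, Mt1 at 1013 ± 16.0 and Mt3 at 453 ± 5.55 FPKM, with no overlap between neighbours. Mtf1 was far lower, at 3.98 ± 0.131 FPKM in control and 4.10 ± 0.190 FPKM in cadmium. Among the genes tested, Mt2 moved from places 113 to 150 by FPKM in control libraries to places 18 to 21 in cadmium libraries. Mt1 moved from places 102 to 121 to places 34 to 40, and Mt3 was at places 102 to 109 and 114 to 123.

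The order of Mt1 and Mt2 depends on the gene length. The length behind the deposited FPKM of Mt1 was 1258 bases, 2.29 times the 549 bases of its fully spliced transcript in GENCODE M21. GENCODE also lists Mt1 transcripts that retain introns, and the union of all its Mt1 exons is 1246 bases. For Mt2 and Mt3 the implied lengths were 556 and 538 bases against spliced lengths of 511 and 536 bases. With counts divided by spliced lengths, in a comparison chosen after the data were seen, Mt1 was highest in both groups. Scaled like FPKM, it then stood at 1025 ± 97.9 in control and 2320 ± 36.6 in cadmium, Mt2 at 442 ± 62.2 and 1435 ± 63.2, and Mt3 at 473 ± 32.2 and 455 ± 5.57 (SD, n = 3). Which Mt1 transcripts the cells make was not measured by gene counts.

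The family total was higher in cadmium libraries, with a larger share of Mt2 and a smaller share of Mt3. The level of Mt3 itself was not called changed (471 FPKM in control and 453 FPKM in cadmium). Its smaller share thus mostly reflects the larger total, and is not a separate result. Together the 3 genes took 0.104 ± 0.00967% of all counts in control cultures and 0.225 ± 0.00516% under cadmium (SD, n = 3), 2.16 times as much. Of the gain of 1208 CPM, Mt1 supplied 58.8% and Mt2 41.96%. By FPKM, the share of Mt2 was 30.7%, 29.1% and 32.0% in control and 48.0%, 46.4% and 47.7% in cadmium replicates 1, 2 and 3. That of Mt3 was 37.0%, 36.1% and 33.7% in control and 15.8%, 16.8% and 16.3% in cadmium replicates. The share of Mt1 differed least, with 33.8 ± 1.30% in control cultures and 36.4 ± 0.440% under cadmium (SD, n = 3). For each of the 3 genes the shares of the groups did not overlap (exact permutation test, two-sided, p = 0.1, the smallest that 3 against 3 allows). With spliced lengths the Mt2 share went from 22.7 ± 1.148% to 34.1 ± 0.717% and the Mt3 share from 24.4 ± 1.36% to 10.8 ± 0.298% (SD, n = 3), the same directions with smaller shifts.

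Mt2 stood higher relative to Mt1 under cadmium. The FPKM ratio of Mt2 to Mt1 was 0.948, 0.836 and 0.934 in control and 1.32, 1.26 and 1.32 in cadmium replicates 1, 2 and 3, so every cadmium library had a higher ratio than every control library. This was a 1.44-fold change of the ratio, or 0.52 on the log2 scale (exact permutation test, two-sided, p = 0.1, n = 3, the smallest the design allows). A gene's length cancels in this change, which is the same for FPKM, counts and spliced lengths. Against Mt3, the ratio of Mt1 was 2.35-fold higher in cadmium libraries and that of Mt2 3.39-fold higher, again with no overlap of the groups (exact permutation p = 0.1 for each, n = 3). Adjusted over these 6 shares and ratios by the Benjamini-Hochberg method each p is still 0.1.

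**Figure D3:**
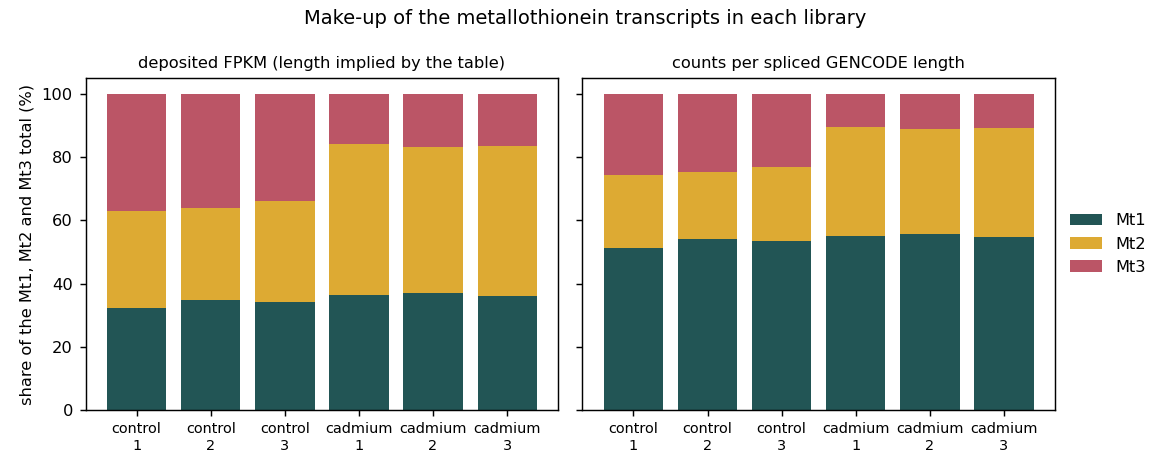
Share of each gene in the summed level of Mt1, Mt2 and Mt3 in each of the 6 libraries, in percent, from the deposited FPKM (left) and from counts per spliced GENCODE length (right). In both, the Mt2 part is larger and the Mt3 part smaller in each cadmium library than in each control library, and the Mt1 part is larger on the right.

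The genes whose profiles were nearest to each member were sought among the 10594 genes that averaged 5 CPM or more. Likeness was the Euclidean distance between log2(CPM + 0.5) values, each gene centred on its own mean over the 6 libraries. Pearson r over the 6 libraries is given as a description, and its points share the contrast between the groups. Nearest to Mt1 was Slc30a1, the gene of the zinc exporter ZnT1 of the cell surface and itself a known MTF-1 target (distance 0.221, r = 0.995), against a median distance of 1.47 over all genes. Slc30a1 was at 31.3, 32.4 and 33.9 CPM in control and 65.9, 68.3 and 69.6 CPM in cadmium replicates 1, 2 and 3. Its log2 fold change was 1.07 ± 0.05 (SE, edgeR adjusted p = 1.4e-08). Diras2, a small GTPase gene, and Ptprn, a receptor-type phosphatase gene of secretory granules, came next at distances of 0.321 and 0.336.

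Nearest to Mt2 were Hmox1, the heme oxygenase gene (distance 0.396), Eef1a2, a translation elongation factor gene (0.411), and Srxn1, the sulfiredoxin gene (0.460). Hmox1 and Srxn1 are known NRF2 targets. Their log2 fold changes were 1.90 for Hmox1, 1.54 for Eef1a2 and 1.58 for Srxn1. Mt1 was at place 9 in likeness to Mt2, at a distance of 0.658, while Mt2 was only at place 73 in likeness to Mt1. The genes nearest to Mt3 were Ccdc107, Bach1, a heme-sensing repressor of NRF2 targets, and Grhpr, a glyoxylate reductase gene (distances 0.0526 to 0.0622). For Mtf1 they were Wdr20, Celf2, an RNA-binding protein gene, and Mtpn (0.0372 to 0.0475). Median distances over all genes were 2.11 for Mt2, 0.312 for Mt3 and 0.284 for Mtf1. Small distances to Mt3 and Mtf1 thus do not mean a closer likeness than those to Mt1 and Mt2. None of the 6 genes nearest to Mt3 and Mtf1 was called changed by edgeR, where 45.5% of all genes tested were called. That follows from choosing them by likeness to profiles without a called change. The rises of the genes nearest to Mt1 and Mt2 follow from their choice in the same way.

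**Figure D4:**
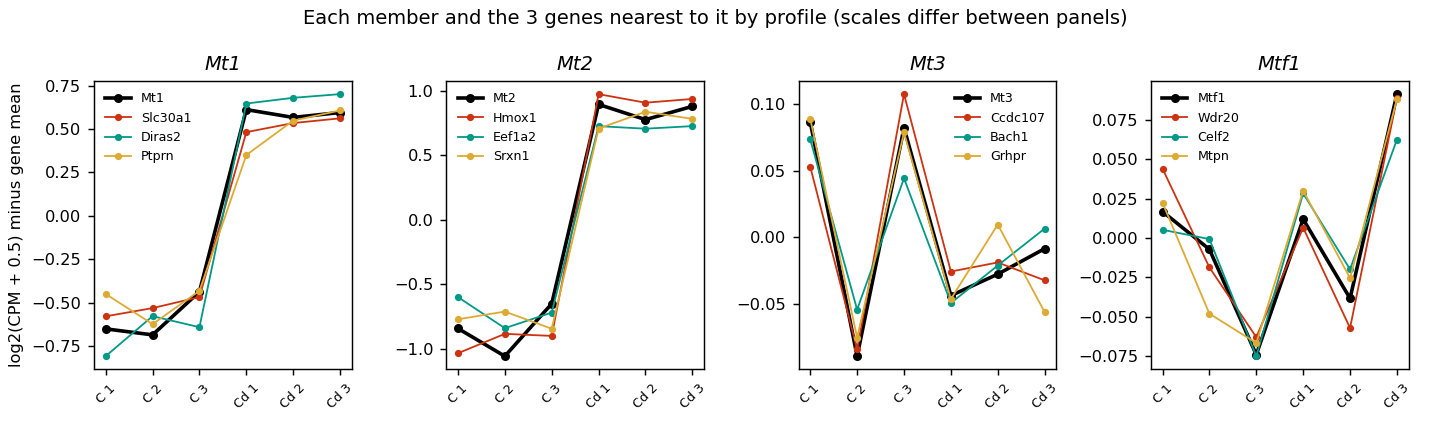
Profiles of each member (black) and the 3 genes nearest to it, as log2(CPM + 0.5) minus the gene's mean, over control (C) and cadmium (Cd) replicates 1 to 3. The Mt1 and Mt2 panels show a step between the groups, and the Mt3 and Mtf1 panels span a much narrower range.

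Genes reported as MTF-1 targets in other systems moved in both directions. Of 9 tested beside the metallothioneins, 3 rose, 4 fell and 2 were not called. Calls were thus more frequent, at 7 of 9, than the 45.5% over all genes tested, in a list of few genes. The list includes Slc39a10, which MTF-1 is known to repress, so a single direction was not to be looked for. Its median log2 fold change was 0.07 beside -0.01 over all genes tested. The sign of that median turned (-0.0022) without control replicate 3. Values that follow are log2 fold changes ± SE. Those that rose were Slc30a1, Gclc, which encodes the catalytic subunit of the first enzyme of glutathione synthesis (0.45 ± 0.05), and the selenoprotein gene Selenoh (0.20 ± 0.05). Slc30a10, the gene of a manganese exporter of the zinc transporter family, went the other way. It was at 10.8, 9.80 and 14.8 CPM in control and 3.42, 2.09 and 3.44 CPM in cadmium replicates 1, 2 and 3, a log2 fold change of -1.97 ± 0.21 (SE, edgeR adjusted p = 3.2e-05).

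Also lower were Csrp1, a LIM domain protein gene (-0.64 ± 0.06), Pgf, the placental growth factor gene (-0.51 ± 0.13), and the selenoprotein gene Selenow (-0.14 ± 0.05). The Selenow call was lost without control replicate 3, cadmium replicate 1 or cadmium replicate 2 (edgeR adjusted p of 0.069, 0.12 and 0.094, range over its alternatives 0.0085 to 0.12). No change was called for Slc39a10, a zinc importer gene that MTF-1 is known to repress (0.07 ± 0.06), or for Ndrg1, a stress-response gene (0.23 ± 0.12). Promoter windows were found for 7 of the 9 genes. Slc30a1 held 2 metal response element matches and 1 antioxidant response element match. Slc30a10 and Csrp1, which fell, held 3 metal response element matches each. Of these, 2 of Slc30a10 overlap on opposite strands, and those of Csrp1 lie in 1 of its 2 windows. Selenow, which fell, held 2 that overlap on opposite strands. Selenoh, which rose, Pgf, which fell, and Slc39a10, which was not called, held 0. Whether the number of matches goes with direction was not tested. The 2 matches of Slc30a1 are shown in stretches of 30 bases on the plus strand (GRCm38.p6) for comparison with those of Mt1 and Mt2.
Slc30a1 bases -55 to -26 (chr1:191906726-191906755): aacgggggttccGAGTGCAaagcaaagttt
Slc30a1 bases 21 to 50 (chr1:191906801-191906830): cctccgggccGAGCGCAgtcgccgcggacg

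Of 7 genes of factors known to act at the Mt1 promoter, Nfe2l2, which encodes NRF2, rose (0.15 ± 0.05) and 3 fell, with a median of -0.10. With 45.5% of all genes tested called, 4 of 7 is near the background. Those that fell were Usf1, an E-box binding factor (-0.23 ± 0.05), Nr3c1, the glucocorticoid receptor (-0.19 ± 0.05), and Stat3, a cytokine-activated factor (-0.14 ± 0.04). Sp1 (0.11 ± 0.05), the coactivator gene Ep300 (-0.10 ± 0.06) and Usf2 (-0.03 ± 0.09) were not called. The calls of Nfe2l2 and Stat3 were lost without cadmium replicate 1 or without cadmium replicate 3 (edgeR adjusted p of 0.065 and 0.099 for Nfe2l2, and of 0.053 and 0.080 for Stat3, with ranges over all alternatives of 0.0023 to 0.099 and 0.0089 to 0.080). Nfe2l2 also missed the threshold in limma fits of the FPKM values (adjusted p of 0.073 and 0.069). Without cadmium replicate 1 or cadmium replicate 3, 2 of 7 were called, and in each limma fit 3 of 7.

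Copper, the other metal that metallothioneins hold, has its own set of carriers. Of 10 copper handling genes listed 9 were tested and 3 called, where 45.5% of all genes tested were called, and with so few genes nothing particular to copper is read from that count. Cox17, a chaperone gene for cytochrome oxidase, rose (0.30 ± 0.06). Ccs, the copper chaperone gene of superoxide dismutase (-0.35 ± 0.09), and Slc31a2, a copper transporter gene (-0.39 ± 0.12), fell. The Slc31a2 call was lost without control replicate 3 or cadmium replicate 3 (edgeR adjusted p of 0.063 and 0.054, range over its alternatives 0.0063 to 0.063). The importer gene Slc31a1 (-0.07 ± 0.04), the copper pump genes Atp7a (-0.14 ± 0.10) and Atp7b (0.08 ± 0.08), Atox1 (-0.06 ± 0.09), Commd1 (0.09 ± 0.05) and Sco1 (0.15 ± 0.09) were not called. The median was -0.06, and 0.06 without control replicate 3.

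Glucocorticoids also induce Mt1 and Mt2. Of 8 genes of that response tested, 2 rose and 2 fell, with a median of -0.08, a number of calls near the 45.5% of all genes tested. Fkbp5, a chaperone gene of the receptor (0.29 ± 0.06), was higher and Tsc22d3, the gene of the glucocorticoid-induced leucine zipper (-0.27 ± 0.08), was lower. Errfi1 fell (-0.35 ± 0.07), and the rise of Klf9 (0.18 ± 0.07) was lost under 9 of 14 alternatives, with an edgeR adjusted p of 0.16 without control replicate 3 (range over its alternatives 0.0068 to 0.16).

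Mt1 to Mt4 sit next to each other on chromosome 8, and each neighbour tested had a smaller absolute log2 fold change than Mt1 and Mt2. The same holds for most genes tested, whose median absolute log2 fold change was 0.20, so it is not particular to the neighbours. The 5 nearest protein-coding genes on each side were taken from the RefSeq order of genes. Of 9 tested, 4 rose and 1 fell, with a median of 0.08, again near the 45.5% called over all genes tested. The largest absolute log2 fold changes were those of Cpne2 (0.37 ± 0.06) and Bbs2 (-0.37 ± 0.08). On the side of Mt1, the nearest gene, Nup93, a nuclear pore gene, was at 87.5, 90.2 and 75.7 CPM in control and 108, 107 and 102 CPM in cadmium replicates 1, 2 and 3 (0.33 ± 0.06). Bbs2, a cilium gene and the nearest on the side of Mt4, was at 18.4, 18.8 and 20.5 CPM in control and 14.1, 15.7 and 14.7 CPM in cadmium replicates. The ER stress gene Herpud1 (-0.05 ± 0.08) was not called.

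**Figure D5:**
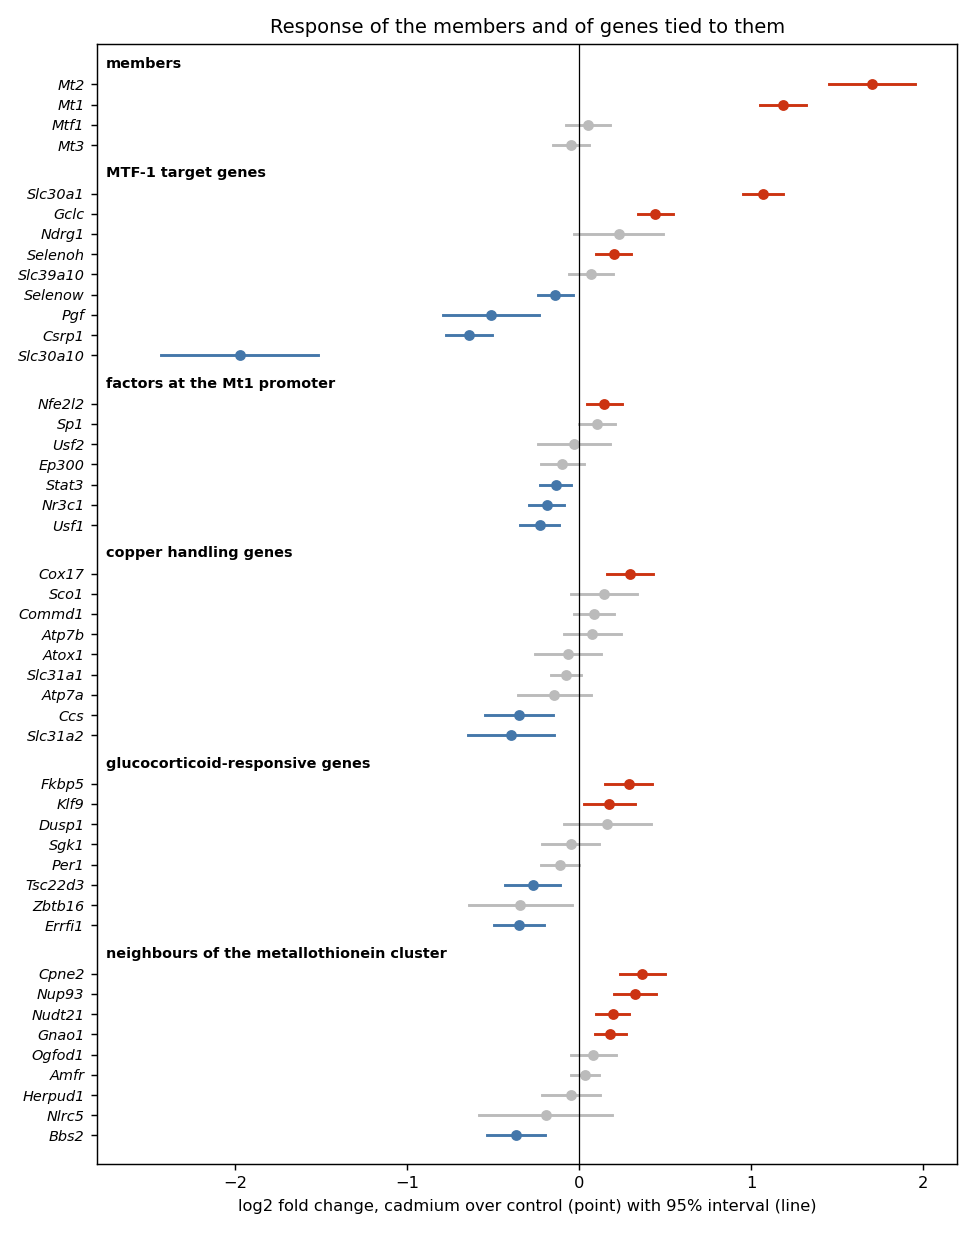
Log2 fold changes of cadmium over control (points) with 95% intervals (lines) for the 4 members and for each tested gene of the 4 lists and the neighbours of the cluster. Red and blue mark genes called higher and lower at an edgeR adjusted p below 0.05 and grey marks genes not called. Mt2 and Mt1 lie furthest to the right, at 1.71 and 1.19.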

How the data were processed

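Counts per gene and FPKM values come from the authors' deposited tables, 1 column a library. Per the submitters' processing notes, which give no roles, GRCm39, HTSeq 0.11.2, DESeq2 1.22.2, HISAT2 2.1.0 and fastp 0.20.1 were used. The gene annotation and strand setting are not given in the sources used here. Without strand, reads of Mt2 cannot be told apart from those of an antisense gene that overlaps it by 749 bases in GENCODE M21, nor the end of Mtf1 from an opposite gene over 721 bases. Mt1 and Mt2 are similar in sequence, and sharing of reads between them was not tested. Each deposited FPKM equals the count over the library total and 1 whole-number length per gene (largest relative deviation 1.63e-08).

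The test was edgeR 4.0.16 in R 4.3.3 (robust quasi-likelihood with TMM scaling and no covariates) on genes passing filterByExpr (minimum count 10, minimum total 15), 99.96% of counts. P-values were two-sided and Benjamini-Hochberg adjusted over all genes tested. SE is the absolute log2 fold change over the square root of F. The fit was tested on simulated counts. Shares and ratios were compared by exact permutation over libraries. CPM uses the library total. Promoter windows are RefSeq's (GRCm38.p6), a build other than that of the files, and matched by gene symbol. Alternatives were other scalings, DESeq2 1.42.0, other filters, limma 3.58.1 on log2(FPKM + 1) and log2(FPKM + 0.1) of the same genes, a replicate block and each library left out.

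Named genes are the 4 members, the genes of the 4 lists, the neighbours of the cluster and the 3 nearest genes of each member. Members and lists were chosen with earlier results of these data known.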

Additional observations from a re-analysis of the deposited data

How the results depend on the processing

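The log2 fold changes of all 4 members kept their direction and their side of the threshold in each of 14 alternatives. Leaving out 1 library at a time gave 1.13 to 1.28 for Mt1, 1.604 to 1.82 for Mt2, -0.11 to -0.01 for Mt3 and 0.02 to 0.08 for Mtf1. The Mt3 adjusted p was lowest, at 0.067, without control replicate 2 (range over its alternatives 0.067 to 0.85). The cadmium minus control difference in the Mt2 share was 16.8 percentage points by FPKM, 10.9 by read counts and 11.3 by spliced length. For the Mt3 share it was -19.3, -13.5 and -13.6 percentage points. The single length behind the deposited FPKM of Mt1 sets these differences in part. With 1 library left out at a time the Mt2 shift ran from 16.0 to 17.5 and the Mt3 shift from -20.3 to -18.6 percentage points. The Mt1 shift ran from 1.85 to 3.08 percentage points and the log2 ratio of Mt2 to Mt1 from 0.47 to 0.56. Of the promoter factor genes, 4 of 7 were called, and 2 to 5 with 1 library left out. The median log2 fold change of the MTF-1 targets ran from -0.0022 to 0.122 and that of the copper genes from -0.0606 to 0.0642 with 1 library left out, and both changed sign without control replicate 3. The cause was not tested. Genes called higher ranged from 2719 to 3810 and lower from 2617 to 3356, against 3313 and 3221 of 14369 tested in the main fit. The number tested differed between alternatives, from 10866 with at least 5 CPM in 3 libraries to 22987 with no filter. The 3810 came from the fit with no filter.

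Replicate numbers are not said to mark shared animals or days. Deviations of same-numbered libraries correlated at -0.0058, 0.15 and -0.0055 across genes, and those of libraries with different numbers at -0.095 to 0.085. With 3 libraries a group, these values cannot decide whether the numbers pair the samples. Replicate 2 alone correlated best with its own number. With the replicate block the log2 fold changes were 1.19 for Mt1, 1.71 for Mt2, -0.04 for Mt3 and 0.05 for Mtf1. Mtf1, with 1131 to 1339 reads a library, has the least depth of the members.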

Other observations

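The 3 metallothionein genes varied less between cadmium libraries than between control libraries. The coefficient of variation of CPM was 9.55% in control and 1.58% in cadmium for Mt1 (n = 3 each), 14.1% and 4.41% for Mt2, and 6.81% and 1.225% for Mt3. Mtf1 went the other way, at 3.297% and 4.63%. Among 2405 genes tested with a mean of at least 100 CPM the median was 3.76% in control and 2.42% in cadmium, and 69.6% of them had the smaller value in cadmium, so the direction was common to most well-expressed genes. All 3 metallothionein genes lay above the median in control libraries. Control replicate 3 was highest for Mt1 and Mt2 while control replicates 1 and 3 were close for Mt3. Counting error was small beside these spreads, with a standard error from counts alone of 0.0066 for the log2 fold change of Mt1 and 0.0099 for that of Mt2, against 0.06 and 0.11 from the fit.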
